A study of Mus musculus with 207 samples.

Results

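In the cecum of Collaborative Cross (CC) mice, 10 genes best known from the small intestine were followed across individual animals: Defa20, Sis, Apoa1, Apob, Mttp, Alpi, Anpep, Rbp2, Fabp1 and Fabp2. They were picked out of 19057 genes named on the arrays, and 14 of 45281 probes measure them. The genes were chosen by values of these same arrays, namely their level against background, the skew of their levels over mice and their rise in the same animals. These 3 properties are therefore described without a test. Differences by sex, breeding line and number series were tested, because the choice did not use them.

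Each adult mouse of the CC breeding population gave cecal RNA for 1 Illumina Mouse WG-6 v2 array. The animals came from partly inbred lines that descend from a set of common and wild-derived founder strains, ate standard chow, carried no engineered allele and received no treatment named in the labels. Of 205 mice with a labelled sex 49.3% were female, and 2 animals of unclear sex were kept out of tests by sex. Breeding lines, read from the number that opens each identification, came to 113, of which 92 held both sexes (185 mice). The last number fell into a low series of 116 mice and a high series of 90 mice, split at 100, and their meaning is not stated in the sources. Epithelial cells were loosened by filling the organ with a chelator before RNA was purified. Whether this enriched the samples for epithelium was not tested, because no sample prepared without this step is among the arrays. Smooth muscle genes were also read, with median log2 levels that differed widely, such as 13.33 for Actg2 and 6.84 for Cnn1. The samples are therefore taken as mixtures of cell types. In such a mixture more cells of a type and more RNA per cell cannot be told apart.

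The small intestine digests and absorbs most nutrients, and its enterocytes carry sugar- and peptide-splitting enzymes on a brush border. The same cells repackage absorbed lipid into chylomicrons, which need an apolipoprotein B scaffold and a transfer protein that loads it. Paneth cells at the base of small intestinal crypts secrete alpha-defensins against microbes. The mouse cecum begins where the ileum ends, has no villi, and is lined by an epithelium that resembles that of the colon.

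Levels are given as log2 of the deposited intensity, so that a difference of 1 doubles the intensity. The background was 6.33, the 95th percentile of the mean levels of 1543 receptor probes (olfactory, vomeronasal or taste), taken here as silent, and 20322 probes (44.9%) and 11407 genes had a mean above it. Array medians ran from an intensity of 41.5 to 103.7. On 8 arrays (6 of females, 2 of males) intensities reached below 0, and every member value at the floor of 4.0 came from them. Xist went against the labelled sex in 7 mice, the Y-linked genes did in 18, and both did in 4.

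The female of line 863 and the male of line 1234 stood apart from the other 205 mice in the member genes. As whole arrays they were unusual too, though not the furthest apart. Their median correlation with the other arrays over genes above background was 0.847 and 0.864, the 9th and 12th lowest. A typical value was 0.94 and the lowest 0.591, and most arrays ranking below the female had values below 0. In the female and the male 206 and 233 genes lay more than 2 log2 units over their median, against 14 in a typical array. With each other the 2 arrays correlated at 0.955. In both mice Defa20, Sis, Apoa1, Apob, Alpi, Anpep, Rbp2 and Mttp lay more than 2 log2 units over their median and among the 10 highest. These are the 8 members counted as above background, but the mean of Mttp passed only through this pair. Apolipoprotein A-IV (Apoa4), a chylomicron component, was at 15.38 and 15.36 in these 2 mice, against a median of 6.33 and no more than 9.39 in any other mouse. Apoc3, which slows lipoprotein clearance, was at 14.52 and 14.40, against at most 9.02 elsewhere. Of 12 genes listed for the proximal small intestine and above background, 9 and 10 were among the 10 highest mice in the female and the male. Of 16 listed colonocyte genes, 9 and 8 were among the 10 lowest, 7 of them in both. In the female 2 others were among the 10 highest, the water channel Aqp4 at 9.51 (rank 1) and Ceacam20 at 10.16 (rank 8). Carbonic anhydrase 1 (Car1), abundant in colonocytes, was at 9.42 and 9.61 against a median of 14.75, the lowest levels of any mice. The water channel Aqp8 was at 7.33 and 7.04 against a median of 12.11. Slc37a2 was at 6.50 and 6.28, near background, against a median of 11.25. Fabp6, the bile acid binding protein of the ileum, was at 5.61 and 6.0, below background in both, against a median of 7.63. Of the other ileal genes only the bile acid receptor Nr1h4 was low, in the male alone (rank 93 and 203), and the list of 5 had a median difference of 0.41 and 0.35. In it Fgf15 ranked 13 and 17, the bile acid exporter subunit Slc51b 12 and 60, and its partner Slc51a 41 and 22. Most smooth muscle genes were low too, with median differences of -1.23 and -0.66 and 4 and 2 of 8 among the 10 lowest. Mylk of that list went the other way, at 13.51 and 13.37 (ranks 13 and 19) against a median of 12.83. Cnn1 was at 7.06 and 6.81 against a median of 6.84. Tagln, a smooth muscle actin binding protein, was at 7.28 and 7.15 against a median of 9.17. Over all 11407 genes above background, the female was among the 10 highest in 14.4% and among the 10 lowest in 14.1%, and the male in 10.4% and 9.99%. The lists had median differences of -0.27 and -0.50 for goblet, -0.09 and -0.50 for lymphoid and 0.04 and 0.05 for liver genes. What part the smooth muscle and other cell types had in the result was not tested.

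**Figure D1:**
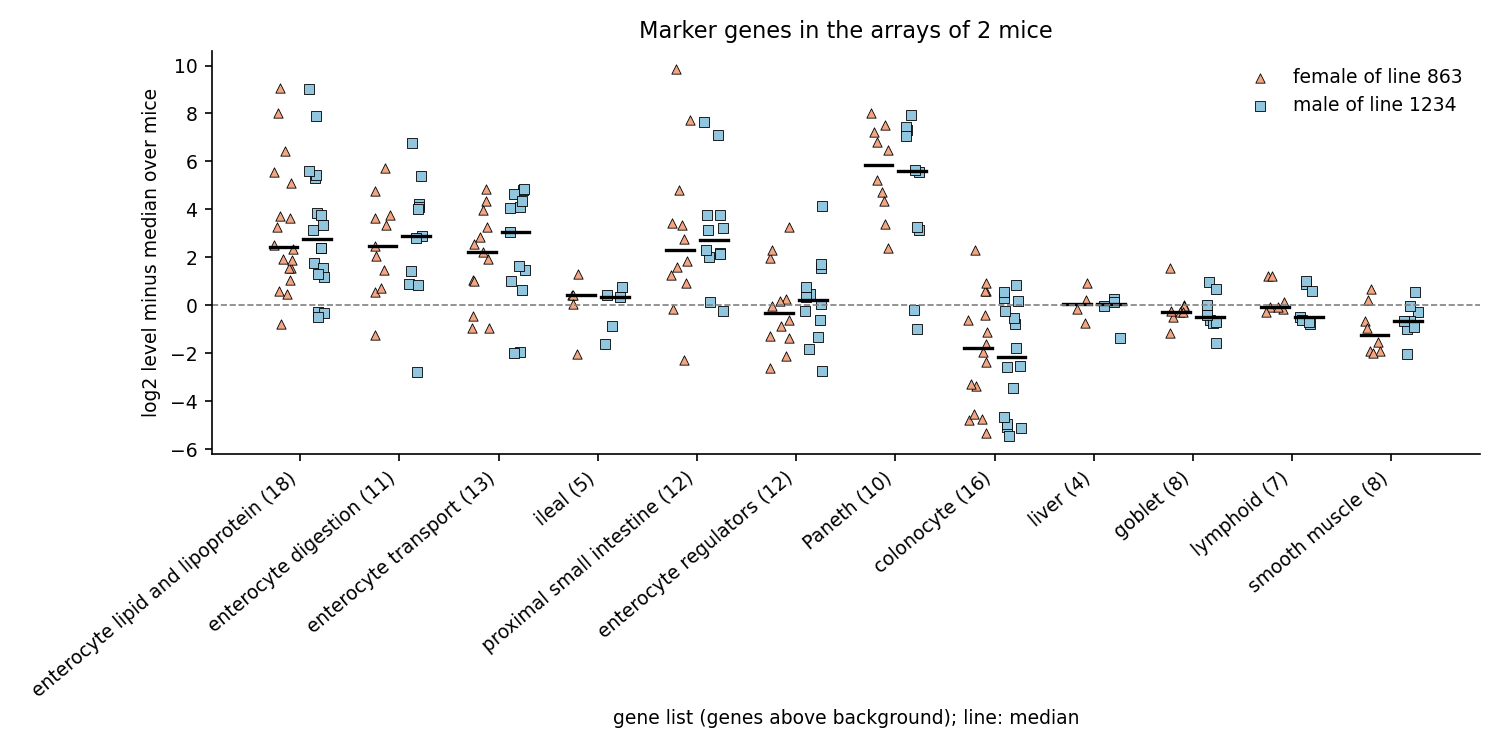
Difference in log2 level from the median over mice for each gene above background of 12 lists (number of genes in parentheses), in the female of line 863 (triangles) and the male of line 1234 (squares), with horizontal lines at the list median. The Paneth list had a median difference of 5.85 and 5.61, and the colonocyte list one of -1.78 and -2.16.

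The labelled mates of these animals did not share the pattern. The male of line 863 ranked between 44 and 173 of all mice for the 10 genes, with Defa20 at 6.96 and Apoa1 at 7.94. The female of line 1234 ranked between 26 and 180, with Defa20 at 6.38 and Apoa1 at 7.35.

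Defa20 encodes an alpha-defensin of Paneth cells, and its first probe was above background in 144 mice (69.6%). Females ran from 5.80 through a median of 7.05 to 16.28, and males from 5.71 through 7.06 to 15.64, so that the sexes overlapped almost completely. Levels were 6.23 at the 25th and 9.19 at the 75th percentile, and 56 mice exceeded the median by more than 2 log2 units (54 of 205 without the outlying pair). The highest intensity, 79849, was 613 times the median of 130.3, and without the pair the highest was 117 times a median of 126.4. The skewness was 1.33, and 1.07 without the pair. The second probe followed the first closely (rho = 0.98), with 51 mice over its median by 2. The third probe did so less (rho = 0.63), with 16 such mice and a mean of 6.77. In the female of line 863, where the first probes read 16.28 and 15.41, it read 6.55. In the male of line 1234 it read 13.31. Alpha-defensin genes form a cluster of near-identical copies on chromosome 8 that differs between mouse strains, so signal at any of these probes may belong to several copies, and a founder variant under a probe cannot be told apart from a change in level.

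The start region of Defa20 and those of the 3 genes that follow it over mice, together with that of Alpi, which does not, are shown because the report turns on which genes rise in the same animals. They are RefSeq promoters of GRCm38.p6, from 250 bases before to 50 after the start, written 5′ to 3′ on the strand of the gene. For each gene 1 start was taken, the first listed for it, and any other start is not shown. Which start is used in the cecum was not tested. Defa20 lies at chr8:21509008-21509307 (+), Sis at chr3:72967814-72968113 (-), Apoa1 at chr9:46228380-46228679 (+), Anpep at chr7:79848161-79848460 (-) and Alpi at chr1:87101557-87101856 (-). Capitals mark letters matching 1 of 7 motifs on either strand: the TATA box (TATAAA), a TCF motif (ATCAAAG), a CDX motif (TTTATG), an HNF1 motif (GTTAAT), an HNF4 motif (CAAAGTCCA), a GATA motif (GATAAG) and a nuclear receptor motif (AGGTCA).
Defa20: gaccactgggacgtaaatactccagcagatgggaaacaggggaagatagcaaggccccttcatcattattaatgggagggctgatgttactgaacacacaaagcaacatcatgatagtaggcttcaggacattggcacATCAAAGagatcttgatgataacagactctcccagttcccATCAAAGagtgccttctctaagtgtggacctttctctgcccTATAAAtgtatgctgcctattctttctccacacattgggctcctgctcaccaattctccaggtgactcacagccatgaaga
Sis: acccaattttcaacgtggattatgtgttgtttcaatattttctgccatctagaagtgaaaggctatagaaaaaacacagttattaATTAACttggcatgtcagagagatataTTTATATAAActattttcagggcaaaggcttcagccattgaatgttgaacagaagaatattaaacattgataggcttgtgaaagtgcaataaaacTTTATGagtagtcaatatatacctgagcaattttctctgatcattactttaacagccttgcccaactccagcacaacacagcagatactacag
Apoa1: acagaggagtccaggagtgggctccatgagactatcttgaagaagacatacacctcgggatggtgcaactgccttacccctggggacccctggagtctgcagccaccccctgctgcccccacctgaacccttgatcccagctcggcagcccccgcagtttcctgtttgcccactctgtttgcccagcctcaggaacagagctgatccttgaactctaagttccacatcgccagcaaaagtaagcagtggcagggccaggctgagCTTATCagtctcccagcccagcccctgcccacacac
Anpep: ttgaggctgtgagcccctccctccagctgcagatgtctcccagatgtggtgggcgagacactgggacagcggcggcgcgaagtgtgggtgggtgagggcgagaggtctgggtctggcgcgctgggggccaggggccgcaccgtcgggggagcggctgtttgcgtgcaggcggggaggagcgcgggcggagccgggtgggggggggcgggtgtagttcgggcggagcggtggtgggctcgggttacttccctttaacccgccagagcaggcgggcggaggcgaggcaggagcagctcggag
Alpi: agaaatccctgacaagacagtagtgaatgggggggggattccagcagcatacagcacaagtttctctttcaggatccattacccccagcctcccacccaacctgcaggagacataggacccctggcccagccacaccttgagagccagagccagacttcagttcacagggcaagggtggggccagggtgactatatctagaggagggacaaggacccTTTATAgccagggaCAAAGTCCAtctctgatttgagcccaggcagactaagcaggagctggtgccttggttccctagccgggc
Defa20 held ATCAAAG at 2 places and a TATAAA that begins 31 bases before the start. ATCAAAG was found in 3.73% of 32851 promoters and TATAAA in 13.6%. Sis held TTTATG (11.8% of promoters), GTTAAT read on the other strand (7.10%) and overlapping TATAAA matches on both strands. Apoa1 held only GATAAG (7.44%), on the other strand and after its start. Anpep held none of the 7 and had a GC content of 72.3%, against a median of 52.7% over all promoters. Alpi held CAAAGTCCA (0.475%) and TATAAA on the other strand. No motif was present in the start regions shown for all 4 genes that rose together, and a match in letters is a description, not a site.

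Sucrase-isomaltase (Sis), the brush border enzyme that splits sucrose and starch ends, had a first probe above background in 190 mice. Females ran from 6.12 through 7.98 to 13.61 and males from 6.13 through 7.63 to 14.98. The level passed the median by 2 in 25 mice, and the highest intensity was 147 times the median (23 mice and 19.2 times without the outlying pair). The skewness of 1.26 became 0.82 without these mice, whose absence left a highest level of 12.04. A second Sis probe stayed at background, with a mean of 6.12 and 17 mice above the limit. It read 10.26 in the male of line 1234 but 6.13 in the female of line 863, where the first probe read 13.61.

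Aminopeptidase N (Anpep), which trims peptides at the brush border, was above background in 204 mice. Females ran from 5.86 through 7.53 to 12.98 and males from 6.34 through 7.49 to 13.66. The median was passed by 2 in 18 mice, and the skewness was 1.63 (0.98 without the pair). Intestinal alkaline phosphatase (Alpi), a brush border enzyme that removes phosphate from bacterial lipopolysaccharide, had a different shape. Females ran from 6.18 through 8.37 to 11.96 and males from 6.50 through 8.68 to 12.43, with 206 mice above background. Its skewness was 0.40, or 0.05 without the pair, and only 3 mice passed the median by 2 (2 of 205 without the pair). Alpi varied over mice (SD 0.998), but on both sides of its median.

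Apolipoprotein A-I (Apoa1), the main protein of high-density lipoprotein and made by enterocytes and liver, was above background in 194 mice. Females ran from 6.14 through 8.40 to 15.71 and males from 6.11 through 8.42 to 15.70. The middle of the mice was wide, from 6.86 at the 25th to 9.95 at the 75th percentile, and 39 mice passed the median by 2. The skewness was 0.83, and 0.55 without the pair.

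Apolipoprotein B (Apob), the scaffold of chylomicrons, ran in females from 4.0 through 7.81 to 12.54 and in males from 6.69 through 7.79 to 12.01. Its level was above background in 206 mice, and only the 2 outlying mice passed the median by 2. Without them the highest level was 9.78 and the skewness went from 1.20 to -0.44 (0.58 when the arrays with values below 0 were left out as well). The microsomal triglyceride transfer protein (Mttp), which loads lipid onto apolipoprotein B, ran from 4.0 through 6.36 to 10.18 in females and from 4.0 through 6.34 to 11.27 in males. Its mean of 6.35 was just over background, and 107 mice were above it. Without the pair the mean was 6.31, no longer above background, and the highest level was 7.54. The skewness of 2.81 became -3.06, and 0.84 without the arrays with values below 0. The high levels of Apob and Mttp were thus those of the same 2 animals.

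Cellular retinol binding protein 2 (Rbp2), which carries newly absorbed vitamin A in enterocytes, had 2 probes that followed each other (rho = 0.87). The first ran from 4.0 through 7.39 to 11.99 in females and from 4.79 through 7.53 to 12.75 in males, with 5 mice over the median by 2. Without the pair 3 such mice were left, the highest level was 10.28 and the skewness went from 0.83 to -0.34 (0.94 without the arrays with values below 0).

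The liver-type and intestinal fatty acid binding proteins, Fabp1 and Fabp2, bind fatty acids in the enterocyte cytosol, and both probes read at background. Fabp1 had a mean of 6.04 and a highest level of 6.66, and Fabp2 a mean of 6.05 and a highest level of 6.68. Even in the mice that stood apart they were at 5.94 and 6.34 for Fabp1 and at 6.22 and 5.98 for Fabp2. These probes thus give no usable level in any mouse, and no change in either gene could have been read from them below that limit. Their negative skewness, -3.60 and -3.68, came with the floor values of the arrays with intensities below 0. Without those arrays it was 0.30 and -0.73.

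**Figure D2:**
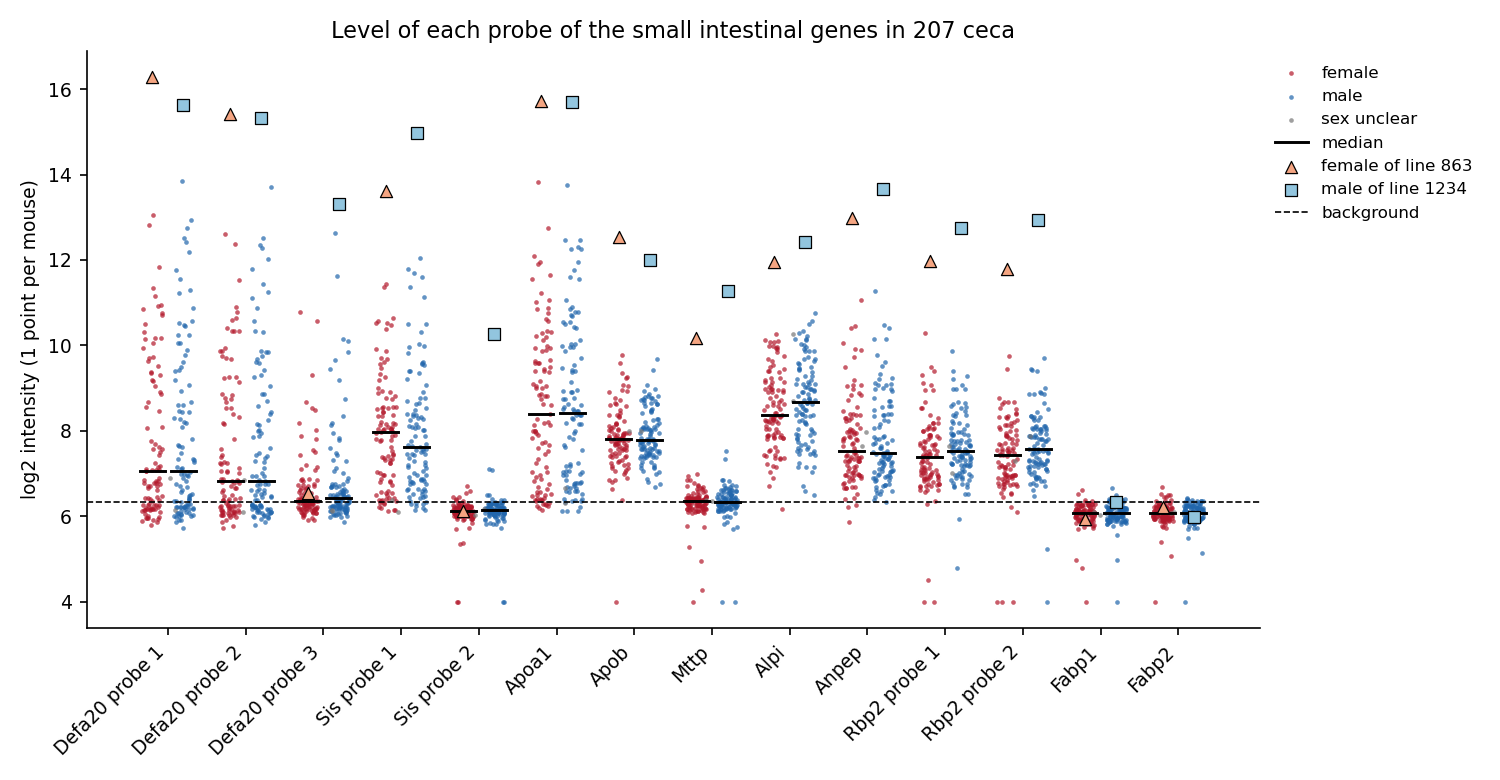
Log2 intensity of each of the 14 probes in every mouse, with females and males side by side, medians as horizontal lines and the background of 6.33 dashed. Defa20, Sis, Apoa1 and Anpep spread far upward, Apob and Mttp do so only in the 2 marked mice, and Fabp1 and Fabp2 stay at background.

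Against all probes above background, the skew of the members was that of a minority. The median skewness over those probes was -0.41 (0.22 without the arrays with values below 0), 16.1% had one over 1, and 5 of the 10 genes did (Defa20, Sis, Apob, Mttp and Anpep). Without the outlying pair 15.6% of probes did and 1 of the genes, Defa20. The median probe had 0 mice over its own median by 2, and 4.10% had 5 or more such mice, as Defa20, Sis, Apoa1, Anpep and Rbp2 did. Without the pair these were 4.06% of probes and the 4 genes other than Rbp2.

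The genes did not rise as one block. Defa20, Sis and Apoa1 were high in the same mice, with a Spearman's rho of 0.86 between Sis and Apoa1, 0.83 between Defa20 and Apoa1 and 0.81 between Defa20 and Sis over all mice. Pearson's r was 0.89, 0.83 and 0.84, and without the outlying pair it was 0.87, 0.80 and 0.81. Anpep joined them less tightly, with rho = 0.68 to Apoa1, 0.54 to Defa20 and 0.52 to Sis. Of 25 mice with Sis over its median by 2, 24 also had Defa20 over its median by 2 and 22 had Apoa1. Seen from the other side, that was 42.9% of the 56 mice with high Defa20 and 56.4% of the 39 with high Apoa1. Of the 18 mice with high Anpep, 17 had high Apoa1. In 11 mice all 4 were high, and in 146 mice none was. Without the pair, 22 of 23 mice with high Sis had high Defa20, 15 of 16 with high Anpep had high Apoa1, and all 4 genes were high in 9 mice. The points are mice, each measured once on 1 array, and no p is given because the members were chosen for this pattern.

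**Figure D3:**
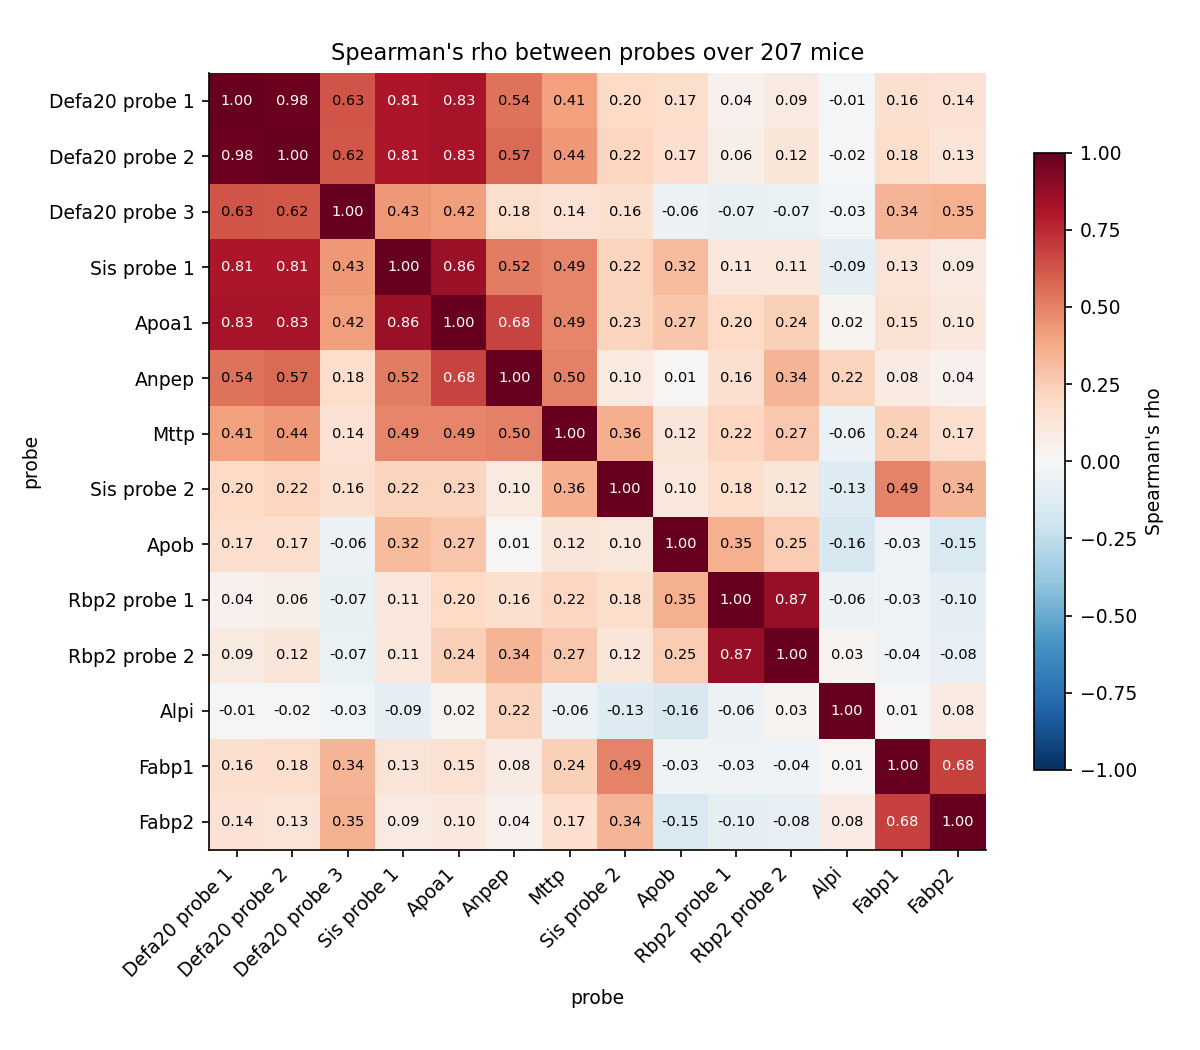
Spearman's rho between all pairs of the 14 probes over all mice, on a color scale from -1 to 1. Among the first probes of Defa20, Sis and Apoa1 rho is 0.81 to 0.86, and Anpep reaches 0.52 to 0.68 with them. The third Defa20 probe is lower, at 0.43 with Sis, 0.42 with Apoa1 and 0.18 with Anpep.

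Values within sexes and number series were similar. They come from the same mice that the choice of members used, so they describe the pattern and add no support for it. Between Sis and Apoa1 rho was 0.85 in females, 0.88 in males, 0.92 in the low and 0.79 in the high series. Between Defa20 and Apoa1 it was 0.81, 0.84, 0.83 and 0.82, and between Apoa1 and Anpep 0.68, 0.68, 0.66 and 0.70. Without the arrays with values below 0 these pairs were at 0.87, 0.84 and 0.70.

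Mttp lay between the group and the rest, with rho = 0.50 to Anpep, 0.49 to Sis, 0.49 to Apoa1 and 0.41 to Defa20, although most of its levels were near background. Without the outlying pair these were 0.49, 0.47, 0.48 and 0.39. Apob and Rbp2 had their own moderate relation (rho = 0.35), while Apob reached 0.32 with Sis, 0.27 with Apoa1 and 0.01 with Anpep. Rbp2 reached 0.20 with Apoa1 and 0.04 with Defa20. Alpi followed none of the others, with rho = 0.22 to Anpep, 0.02 to Apoa1, -0.09 to Sis and -0.16 to Apob. Pearson's r was well above rho for some of these genes, and only part of the gap went with the outlying pair. For Apob and Mttp r was 0.57 against a rho of 0.12, and 0.32 against 0.09 without the pair. For Mttp and Rbp2 r was 0.63 against 0.22, and 0.46 against 0.19 without it. With the pair kept but the arrays with values below 0 left out, r was 0.51 and 0.50. Over all 45 pairs of genes the median rho was 0.15, with 8 pairs at 0.5 or more, and over the 28 pairs of genes above background it was 0.22, with 7 such pairs. The eighth was Fabp1 with Fabp2 (rho = 0.68), at background levels.

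**Figure D4:**
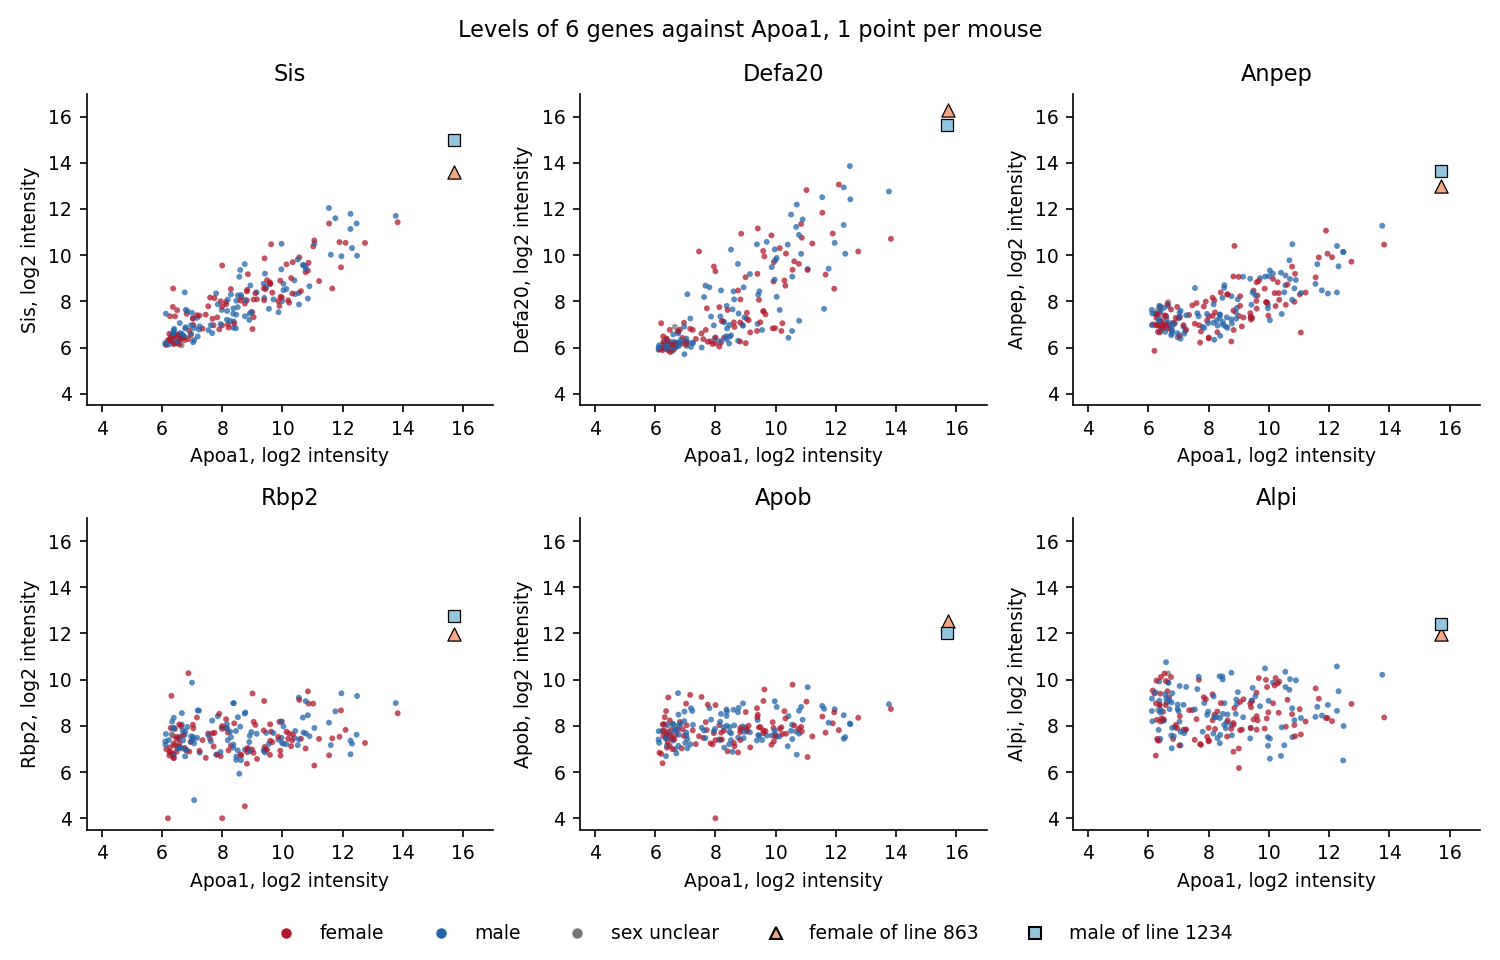
Log2 levels of 6 genes against that of Apoa1, 1 point per mouse. Sis, Defa20 and Anpep rise along with Apoa1 (rho = 0.86, 0.83 and 0.68), whereas Rbp2, Apob and Alpi show less of this (0.20, 0.27 and 0.02). Besides the 2 marked mice, 1 mouse is over the median by 2 in both Apoa1 and Rbp2, and none in Apoa1 and Apob or in Apoa1 and Alpi.

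After the outlying pair, the mice with most members among their 10 highest were the male of line 667 (6 genes) and the male of line 618 (5 genes), and 152 mice had none. The male of line 667 had Defa20 at 12.76, Sis at 11.70, Apoa1 at 13.76 and Anpep at 11.28. The male of line 618 had Defa20 at 13.86, Sis at 11.37, Apoa1 at 12.46 and Anpep at 10.14, but Alpi at 6.50, rank 206, the second lowest. Their marker genes were in part like those of the outlying pair and in part different. Of 10 Paneth genes 6 were among the 10 highest in each male, and of 11 digestion genes 6 and 5. Over all genes above background these shares were 4.78% and 4.88%. Slc7a9 ranked 3 and 4, Slc6a19 5 and 4, and Pdzk1 3 and 7. Of 12 proximal genes, however, only 2 and 0 were among the 10 highest. Fabp6 was at 12.50 and 13.01 in these males, the highest levels of all mice, whereas it was below background in the pair. Car1 was at 14.77 and 14.88, close to its median of 14.75. In the male of line 618, however, Aqp8 was at 11.20 (rank 190) and Slc37a2 at 10.08 (rank 188), both under their medians, while the male of line 667 had them at 12.52 and 11.33. Of the 16 colonocyte genes, 0 and 1 were among the 10 lowest. Apoa4 was at 7.70 and 6.41 (ranks 7 and 84). The median difference over the colonocyte list was 0.12 and -0.14, against -1.78 and -2.16 in the pair.

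The mean standardized level of the 8 members above background served as a member score, and 31 of 11399 other genes above background (0.272%) reached a rho of 0.5 with it, against a median rho of 0.02. The 10 nearest were Slc7a9 (0.87), Lgals2 (0.82), Bcl2l15 (0.82), Defa3 (0.80), Slc6a19 (0.79), Fabp6 (0.78), Pdzk1 (0.77), Defa23 (0.76), Defa26 (0.72) and Abcg5 (0.70). Slc7a9 and Slc6a19 are amino acid transporters of the brush border, Pdzk1 is a scaffold for brush border proteins, and Abcg5 returns plant sterols to the lumen. Defa3, Defa23 and Defa26 may share signal with Defa20, which is part of the score. Since Mttp passed the background only through the outlying pair, the score was also built from the other 7 genes. The same 10 genes were then nearest, and 29 genes reached 0.5 (28 when the pair was left out as well). With the 8 genes and without the pair, the 10 were again the same, and Fabp6 was second at 0.83. Its Pearson's r with the score was 0.54 over all mice.

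Single members had different company. Defa20 was nearest to Defa3 (rho = 0.96), Defa26 (0.91) and Defa23 (0.90), other alpha-defensin genes of chromosome 8. Sis was nearest to Slc7a9, Apoa1 and Defa3 (0.87, 0.86 and 0.84), and Apoa1 to Pdzk1, Slc7a9 and Sis (0.90, 0.90 and 0.86). Anpep was nearest to Apoa1 (0.68), the peptidase Naaladl1 (0.67) and Slc7a9 (0.65). Mttp was nearest to Bcl2l15, Lgals2 and Olfm4, a crypt base protein (0.62, 0.58 and 0.57). Alpi was nearest to the carboxylesterase Ces2a (0.68), Laptm4b (0.67) and Ube2z (0.65). Apob was nearest to Zmym5 (0.63), Commd3 (0.60) and Thoc2 (0.59), and Rbp2 to Abhd11os (0.52), D8Ertd738e (0.49) and Pik3cb (0.49). None of these genes nearest to Alpi, Apob or Rbp2 had a rho above 0.24 with the member score.

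Genes of related function followed the score in part. In the Paneth list, 5 of 10 genes above background reached 0.5, with a median of 0.50. They were Defa3, Defa21 (0.56), Defa23, Defa26 and the lectin Itln1 (0.54). The alpha-defensins among them may share signal with Defa20, which is part of the score, so their rho is not independent of it. Of the Paneth genes that are no defensin, Itln1 alone reached 0.5. Lysozyme 1 (Lyz1) had a rho of 0.10, the ribonuclease Ang4 0.13, Mptx1 0.26 and Pla2g2a 0.33. In the lipid list 4 of 18 did (Abcg5, Abcg8, Apoa4 and Apoc3, median 0.24), in the digestion list 3 of 11 (Naaladl1, Dpp4 and Treh, median 0.20), in the transport list 3 of 13 (Slc7a9, Slc6a19 and Slc34a2, median 0.12) and in the ileal list 1 of 5 (Fabp6, median 0.37). Apoc3 was at 0.50 and fell below that without the pair, which left 3 lipid genes. In the proximal list it was 1 of 12 (Reg3a at 0.65, median -0.00), and among 12 regulators of enterocyte genes none, with a median of 0.09 and a highest rho of 0.24. The 16 colonocyte genes ran from -0.07 to 0.14 with a median of 0.01, so that over all mice their ranks did not follow the score. The outlying pair differed from this, with 9 and 8 of these genes among the 10 lowest. No gene of the goblet, lymphoid, smooth muscle, liver, pancreas, stomach, red cell or adipocyte lists reached 0.5. The lists were chosen with earlier results of these arrays known.

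The comparison of the sexes asked whether females and males differ in these genes. None of the members passed limma's test with Benjamini-Hochberg adjustment (0 of 14 probes at an adjusted p under 0.05), against 16 of 45281 probes (0.0353%) called and 472 at an unadjusted p under 0.05. At an unadjusted p no member probe was under 0.05 either, the lowest being 0.065 for the second Rbp2 probe. Females minus males, the difference was -0.14 for Defa20 (95% interval -0.70 to 0.42), -0.03 for Sis (-0.43 to 0.38), -0.06 for Apoa1 (-0.59 to 0.47) and -0.06 for Anpep (-0.37 to 0.26). It was -0.20 for Rbp2 (-0.47 to 0.06), -0.17 for Alpi (-0.44 to 0.10), -0.07 for Apob (-0.28 to 0.15) and -0.04 for Mttp (-0.21 to 0.12). Without the 4 mice whose Xist and Y-linked levels went against their label, the difference was -0.16 for Defa20 and -0.19 for Rbp2, and no member was called by limma. The intervals of the widely spread genes still allow a difference of up to 0.70 on the log2 scale.

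**Figure D5:**
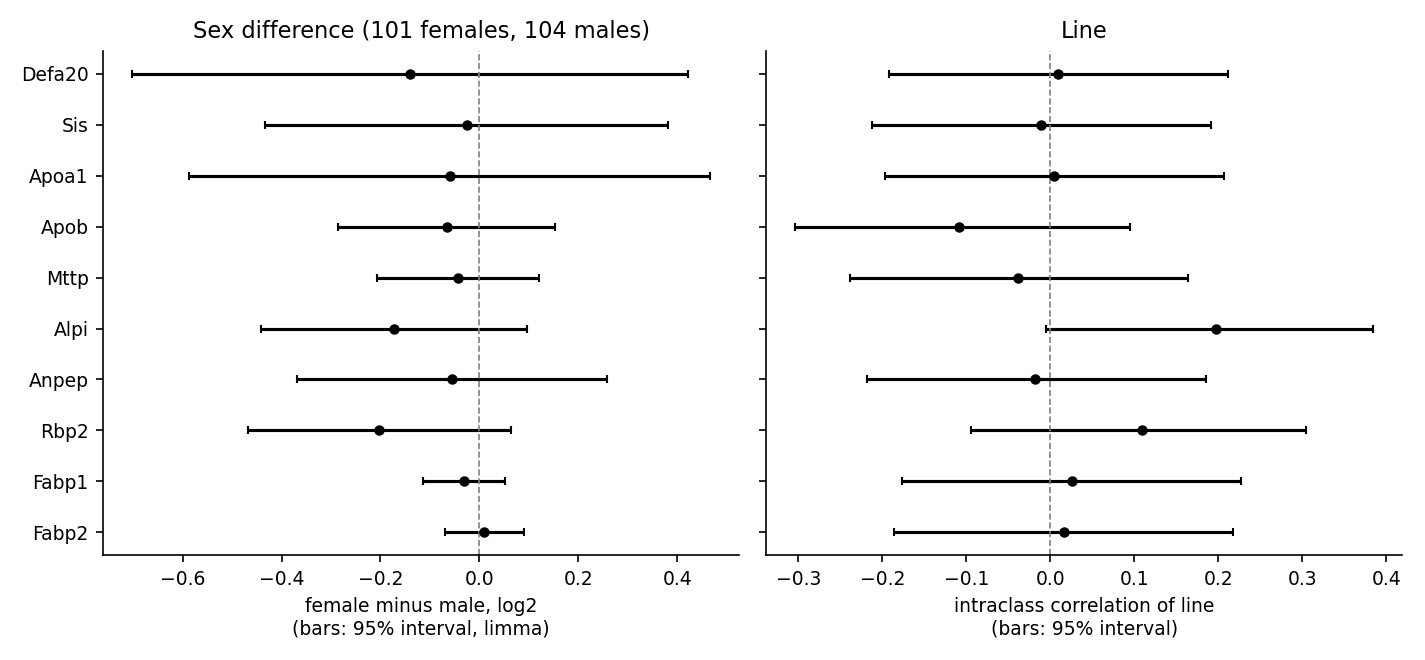
Left, the difference of females minus males in log2 level for the 10 genes, with 95% intervals from limma. Right, the intraclass correlation of line over 92 lines with its 95% interval, where the interval of every gene includes 0 and Alpi has the highest value (0.20).

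The line comparison asked whether mice of a line, which share ancestry, resemble each other. In the study the lines were housed apart from each other, so ancestry and housing of a line cannot be told apart. Nor can a founder variant under a probe be told apart from a change in level. The measure was the intraclass correlation (ICC), the share of variance between lines, on values centered on sex. No member had a line effect by the F-test after adjustment, against 2697 probes called (5.96%) and 7023 at an unadjusted p under 0.05. The ICC was 0.01 for Defa20 (95% interval -0.19 to 0.21), -0.01 for Sis (-0.21 to 0.19), 0.00 for Apoa1 (-0.20 to 0.21) and -0.02 for Anpep (-0.22 to 0.19). It was -0.11 for Apob, -0.04 for Mttp and 0.11 for Rbp2. Alpi had the highest, 0.20 (-0.00 to 0.38), with an unadjusted p of 0.028 and an adjusted p of 0.23. Without the outlying pair Sis was at 0.065 and Anpep at 0.016. With 185 mice in 92 lines these intervals leave room for a moderate line share in any of the genes.

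Of all 11407 genes above background 14.1% had a line effect. Over the lists for enterocytes, ileum, proximal small intestine and Paneth cells together it was 13 of 81 genes (16.05%), close to that share. In the Paneth list these were 3 of 10, Mptx1 (ICC 0.57), Ang4 (0.47) and the phospholipase Pla2g2a (0.34), and no defensin. In the digestion list they were 3 of 11, the brush border peptidases Mep1a (0.51) and Xpnpep2 (0.51) and the microvillus protein villin, Vil1 (0.35). In the transport list 2 of 13 were called, Amn (0.57) and the iron exporter Slc40a1 (0.38), and in the lipid list 1 of 18, Plin3 (0.31). The proximal list had 3 of 12 called, the regulators 1 of 12 and the ileal list 0 of 5 by the same F-test.

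Between the number series no probe on the array passed limma's test (0% of 45281 called, 1829 at an unadjusted p under 0.05), and no member did, with adjusted p from 0.91 to 0.98. The high minus low difference was -0.18 for Defa20 (95% interval -0.75 to 0.39), 0.14 for Sis (-0.27 to 0.56), -0.10 for Apoa1 (-0.63 to 0.44) and -0.04 for Anpep (-0.35 to 0.28). The sex difference also did not differ between the series by limma's interaction term. Of all probes 0 were called and 2260 were at an unadjusted p under 0.05, and the members had adjusted p from 0.82 to 0.89. The difference of the sex differences was below 0 for all 14 probes, which share their mice. Before adjustment the interval lay below 0 for the second Rbp2 probe (-0.57, 95% interval -1.11 to -0.03) and for Fabp2 (-0.18, -0.34 to -0.02), which was at background. The largest estimate was that of Anpep (-0.60, -1.23 to 0.03).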

How the data were processed

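The deposited table holds linear intensities for 45281 probes of each array. The authors made them in BeadStudio 3.0.19 by rank invariant normalization, with no subtraction of background. Probes over founder SNPs, which the study filtered later, are still among them. A floor of 16 was set before taking log2. Probes were named from the array's annotation with current RefSeq symbols (GRCm38.p6): 34885 probes had 1 gene, 18 several and 10378 none. A gene of several probes was represented by the one with the highest mean. Precision is limited by the number of arrays, 1 per mouse.

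Sexes, number series and their interaction were fitted on all probes by lmFit and eBayes of limma 3.58.1 under R 4.3.3, with Benjamini-Hochberg adjustment, and line by an F-test on sex-centered values over 92 lines. Python 3.11.15 was used elsewhere (scipy 1.17.1, numpy 2.4.6, pandas 2.3.3, matplotlib 3.10.9). Both tests were checked on simulated data over all 45281 probes, with effects added to probes drawn at random. Limma called 46 of 50 sex differences of 0.25 and 50 of 50 of 1 (log2), with 4 false calls. The F-test called 14 of 50 at an ICC of 0.3 and 49 of 50 at 0.5, with 2 false calls. The rate at 0.25 does not carry over to widely spread members. Their standard error of the sex difference was 0.287 for Defa20, 0.269 for Apoa1 and 0.208 for Sis. Nothing in the labels says more of the replicates than that each is 1 mouse. Line mates were treated as sharing a line, as the identification gives it. Over 91 lines, deviations of the female and of the male correlated with a median of 0.208, and 63.7% were over 0.1. No value for mice of different lines stands beside this, so it does not test that reading.

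The text names all probes of the members, the 10 genes nearest to the member score, the 3 nearest to each member, and list genes with a rho of 0.5 or more. The genes of the outlying arrays, of line effects and of the mice next in order were chosen after their values were seen. Members and lists were chosen with earlier results of these data known.

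Alternatives were quantile normalization, subtraction of each array's 5th percentile, a floor of 32, leaving out the 8 arrays with values below 0, the mean of all probes of a gene, a stricter background, other groups of mice, line as a block, and, chosen after seeing the data, leaving out the 2 outlying mice and a score without Mttp.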

Additional observations from a re-analysis of the deposited data

How the results depend on the processing

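Counts of members past a threshold kept to the main value in nearly all settings. Above background there were 8 genes, and 7 with the 99th percentile or without the female of line 863 and the male of line 1234. Members called for sex, line or series were 0 under all alternatives, line as a block included, with adjusted p of no less than 0.82 for sex, 0.11 for line and 0.87 for series. The median rho over pairs of 0.15 was 0.30 as Pearson's r and 0.22 over the 8 genes above background, and otherwise lay between 0.12 and 0.19.

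Small uncalled estimates changed sign, and the cause was not tested. With line as a replicate block, which pairs the sexes, the sex difference became 0.028 for Defa20, 0.072 for Sis and 0.0020 for Apoa1, with no call gained or lost. After subtraction of the 5th percentile it was 0.0155 for Mttp and 0.027 for Fabp1, and without the arrays below 0 it was -0.0014 for Fabp2. The ICC became -0.014 for Defa20, -0.021 for Apoa1 and -0.0016 for Fabp2 without those arrays. It became 0.0084 for Sis and -0.023 for Fabp2 after the subtraction and -0.10 for Fabp2 after quantile normalization. Without the 2 mice, chosen after seeing the data, it was 0.065 for Sis and 0.016 for Anpep. In the low series it was -0.033 for Apoa1 and 0.010 for Mttp, and in the high series -0.050 for Fabp1 and -0.070 for Fabp2. The series difference became -0.0087 for Rbp2 and -0.024 for Fabp1 after the subtraction, and -0.0023 for Fabp1 after quantile normalization.

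Of 80 alternative values of skewness 44 moved by more than its standard error. Over all probes, the 2697 line calls became 1844 with the mean of all probes, 4166 with quantile normalization and 4988 without the 8 arrays, and 1511 and 1213 within the low and high series, where fewer mice were tested. The 16 sex calls became 11 with the mean of all probes and 32 without the 8 arrays. Levels near background, as of Mttp, Fabp1 and Fabp2, limit what their differences can show.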

Other observations

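The 2 mice of line 749 with unclear sex were part of the levels and correlations but of no comparison of the sexes. One had Defa20 at 6.90, Sis at 6.10, the lowest of all mice, Apoa1 at 6.65 and Alpi at 10.27, rank 8 from the top. The other had Defa20 at 6.13, Sis at 6.38, Apoa1 at 6.32 and Alpi at 8.69. Both were near background for Defa20, Sis and Apoa1.

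Defa31, another alpha-defensin, repeated the split seen at the third Defa20 probe with the mice exchanged. It was at 14.28 in the female of line 863 and at 6.02, below background, in the male of line 1234, and its rho with the member score was 0.45. Whether these defensin probes meet different gene copies or founder variants in the 2 mice was not tested.

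Pik3cb, 1 of the 3 genes nearest to Rbp2, had a line ICC of 0.63 (adjusted p = 1.02e-09), while Rbp2 itself had 0.11.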
